A study of Homo sapiens with 6 samples.

Results

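The subunits of the nuclear RNA polymerases I, II and III and the factors that build ribosomes in the nucleolus were examined in H226 cells after knockdown of the long noncoding RNA *SWINGN* (*LINC00565*). Members were chosen by gene name alone: names of the POLR1, POLR2 and POLR3 series, the NOP, UTP, RRP, NOL and IMP series, and *FBL*, *NCL*, *NPM1*, *DKC1*, *BOP1*, *PES1* and *WDR12*. The rule found 71 of the 17222 gene names in the table, of which 5 belonged to polymerase I, 17 to polymerase II, 10 to polymerase III and 39 to ribosome biogenesis. The paper describes H226 as a human line of lung squamous carcinoma cells. The cells were transfected transiently with the control antisense oligonucleotide ASO_CTRL or with ASO_LINC#3, which is directed against *SWINGN*. RNA was collected 48 h later in 3 replicates of each condition. Both conditions are the same cell line, and a single oligonucleotide stands for the knockdown. The paper states that its experiments were run as biological triplicates unless a figure legend says otherwise. The labels do not say whether these replicates came from separate cultures, so p-values measure the spread between these libraries, which may be partly technical. The level of *SWINGN* was not analysed here, and the knockdown is taken from the labels.

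Polymerase I transcribes the long ribosomal RNA precursor in the nucleolus, polymerase II transcribes messenger RNAs and most small nuclear and nucleolar RNAs, and polymerase III transcribes 5S ribosomal RNA, transfer RNAs and other short RNAs. The enzymes have their own catalytic core and share several small subunits. The precursor is then cut, folded and chemically modified by the small subunit processome, by box C/D and box H/ACA particles and by the factors that mature the large subunit. Growing tumor cells depend on this production line, and *MYC* is known as a regulator of many of its genes. The libraries were primed on poly(A) tails, so the values below are messenger RNA levels of the protein components and say nothing of the amount of ribosomal or transfer RNA.

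Reads counted on genes ranged from 3686828 to 10546786 per library, and the shallowest library was ASO_LINC#3 replicate 3. Reads assigned to no gene made up 24.84 to 26.33% of an ASO_CTRL library and 27.95 to 28.08% of an ASO_LINC#3 library, without overlap. The part of this difference in the results was not tested. The members together took 0.5159 to 0.5347% of the gene reads in the ASO_CTRL libraries and 0.4791 to 0.4911% in the ASO_LINC#3 libraries. Of the cell type markers listed for the line, the simple epithelial keratins *KRT7*, *KRT8*, *KRT18* and *KRT19* were abundant. Of the squamous markers, *KRT5* was present at 103 and 68.8 CPM on average in ASO_CTRL and ASO_LINC#3, and *KRT6A* had no more than 14 reads in a library. The other squamous markers listed, *TP63*, *KRT14*, *SOX2* and *DSG3*, and the simple epithelial marker *EPCAM* had no entry among the gene names counted. The mesothelial marker *CALB2* was called lower, from 600 ± 91.5 to 154 ± 47.5 CPM (SD, n = 3), and *UPK3B*, with 49.3 ± 4.81 and 26.4 ± 7.83 CPM and no overlap, just missed the bound (log2 fold change -0.92, adjusted p = 0.0104 in edgeR's quasi-likelihood test). *MSLN* and *WT1*, at 29.0 and 45.9 CPM on average in ASO_CTRL, overlapped and were not called. The monocyte marker *CD14* stayed at or below 2.16 CPM in every library. The squamous name of the line is the paper's. Most of the squamous markers listed had no entry, whereas all mesothelial markers listed were counted. The part of these markers in the results below was not tested.

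Levels are given as CPM, read counts scaled to the gene reads of a library and adjusted by TMM, which sets most genes to no change, so a shift of the total RNA of a cell would not be seen. The 70 members past edgeR's filter on low counts were tested between the conditions together with all 14660 tested genes in edgeR's quasi-likelihood test with Benjamini-Hochberg adjustment over all of them. A call needed an adjusted p under 0.01 together with a log2 fold change beyond 0.5 in size. Because the libraries are bulk RNA, fewer cells expressing a gene and less RNA per cell cannot be told apart. CPM are not divided by transcript length and are compared between conditions only.

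To show the control regions of these genes, the RefSeq start regions of 4 members are printed from 170 bases before to 30 after the annotated start, 5′ to 3′ on the gene's strand, in build GRCh38.p14. *FBL*, *NOL6* and *UTP20* are ribosome biogenesis members discussed below, each of which holds an E-box, and *POLR1A* is the polymerase I subunit with the lowest fold change. Capitals mark matches to 1 of the 5 motifs given after the sequences. The regions are chr19:39846350-39846549 (minus strand) for *FBL*, chr9:33473895-33474094 (minus strand) for *NOL6*, chr12:101279935-101280134 (plus strand) for *UTP20* and chr2:86105857-86106056 (minus strand) for *POLR1A*.
FBL: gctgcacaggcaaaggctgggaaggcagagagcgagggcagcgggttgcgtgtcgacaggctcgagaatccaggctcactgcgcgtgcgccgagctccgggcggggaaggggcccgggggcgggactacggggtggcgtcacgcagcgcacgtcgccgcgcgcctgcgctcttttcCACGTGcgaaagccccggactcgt
NOL6: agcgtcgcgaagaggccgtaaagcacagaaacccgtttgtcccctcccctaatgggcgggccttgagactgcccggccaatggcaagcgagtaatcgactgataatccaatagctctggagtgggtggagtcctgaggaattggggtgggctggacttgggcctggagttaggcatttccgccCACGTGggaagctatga
UTP20: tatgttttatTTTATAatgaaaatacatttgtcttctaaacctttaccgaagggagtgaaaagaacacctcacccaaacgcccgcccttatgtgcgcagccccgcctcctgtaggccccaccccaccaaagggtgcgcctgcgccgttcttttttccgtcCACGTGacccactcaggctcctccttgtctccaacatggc
POLR1A: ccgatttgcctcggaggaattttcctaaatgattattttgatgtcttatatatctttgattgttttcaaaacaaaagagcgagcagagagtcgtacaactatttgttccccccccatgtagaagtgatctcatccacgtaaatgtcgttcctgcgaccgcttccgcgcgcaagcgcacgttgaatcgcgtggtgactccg

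Counting the start as base 1, the E-box match began at base 7 in *FBL* and at base 14 in *NOL6*. *UTP20* held an E-box just before its start and a TATA box match farther upstream. For this, 5 letter strings were searched on both strands in windows of 250 bases before to 50 after the start: the E-box CACGTG, an AP-1 site TGACTCA, an ETS site CCGGAAG, an NRF1 site GCATGCGC and the TATA box TATAAA. None of these strings contains another. They were chosen after the members' values had been seen, and 53 members had a window. The E-box was found in 15 of 53 members (28.3%), against 7.43% of all 27305 windows and 10.4% of the 8820 windows of tested genes. The ETS string was found in 20 members (37.7%, against 10.7% and 20%) and the NRF1 string in 5 (9.43%, against 3.27% and 5.65%). The TATA box was found in 2 members (3.77%, against 12% and 5.1%) and the AP-1 string in 0 (against 4.92% and 3.17%). Members with an E-box had a median log2 fold change of -0.08 over 15 genes and those without it -0.06 over 38. For the ETS string the medians were -0.14 over 20 genes and -0.01 over 33. These matches describe letters in a window and were not used in any test.

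The share of members called was close to that of the whole table. After *SWINGN* knockdown 5 of the 70 tested members were called (7.14%), beside 7.54% of all tested genes. Higher were *POLR3D* and *NOL3*, 2 members beside 4.91% of all genes called higher, and lower were *POLR1A*, *POLR2G* and *POLR2L*, 3 members beside 2.63% called lower. With the looser bound of an adjusted p of 0.05, *NOL6* and *UTP20* joined the lower members, for 7 in all beside 16.8% of all genes. The ASO_LINC#3 libraries lay wholly above the ASO_CTRL libraries in 7 members (10%, beside 18.7% of all genes) and wholly below them in 18 (25.7%, beside 17.3%). The median log2 fold change was -0.08 over the members and -0.003 over all tested genes. By the digit in the gene name the median was -0.23 for polymerase I, -0.16 for polymerase II and 0.07 for polymerase III. It was -0.07 for the biogenesis factors. Subunits shared between enzymes are counted here under POLR1 or POLR2. Those shared by all 3 enzymes had a median of -0.34 and those shared by I and III -0.21. Polymerase II without the subunits shared by all 3 had -0.09. Without ASO_LINC#3 replicate 1 the polymerase II median was -0.07 and the biogenesis median 0.002.

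**Figure D1:**
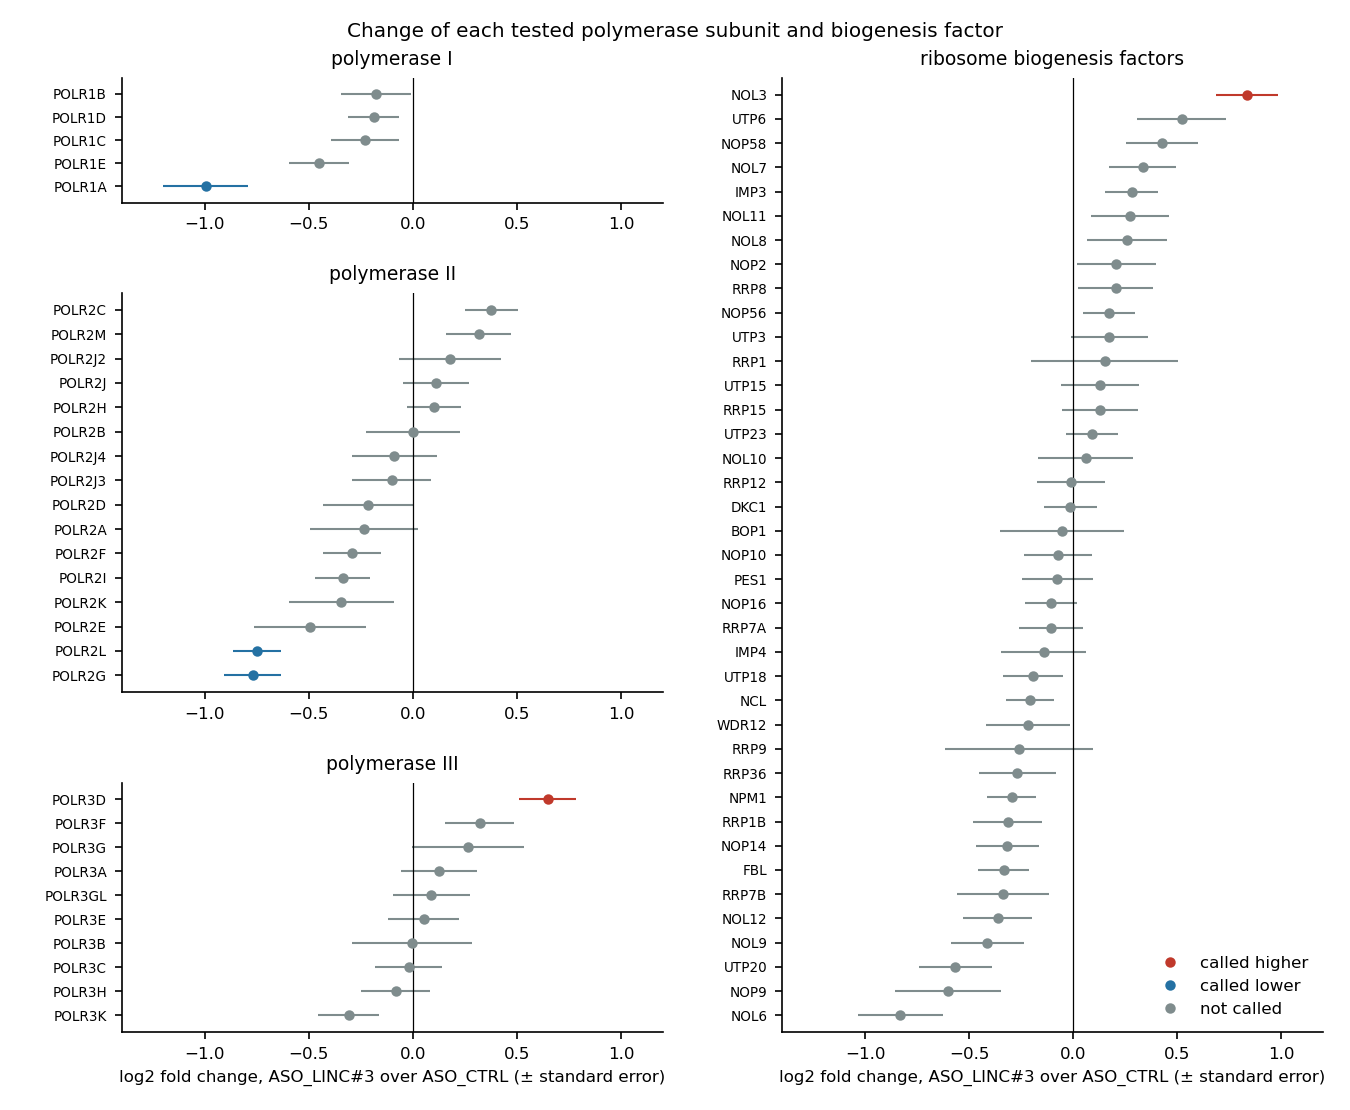
Log2 fold change of ASO_LINC#3 over ASO_CTRL (x axis) with its standard error for each of the 70 tested members, sorted within the 4 groups, from 3 libraries per condition. All 5 subunits named POLR1 lie left of 0, while the 10 subunits named POLR3 lie on either side of it, with POLR3D at 0.65.

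All 5 polymerase I subunits that match the rule by name had a log2 fold change below 0, from -0.996 to -0.18. These signs held in each of the 18 alternative analyses, which refit the same libraries and are no independent check. *POLR1A*, the largest subunit, which carries part of the active site, was the only one called (20%, beside 7.54% of all tested genes). It measured 25.3, 26.1 and 28.1 CPM in ASO_CTRL replicates 1, 2 and 3 and 10.8, 11.8 and 18.1 CPM in ASO_LINC#3 replicates 1, 2 and 3. The conditions did not overlap, and the third knockdown library was the nearest to the controls. *POLR1A*, on chromosome 2 of GRCh37 from 86247339 to 86333278, thus fell from 26.5 ± 1.45 to 13.6 ± 3.95 CPM (SD, n = 3), a log2 fold change of -0.996 (standard error, SE, of 0.20, adjusted p = 0.00773 in edgeR's quasi-likelihood test with Benjamini-Hochberg adjustment).

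*POLR1B*, the second largest subunit and the partner of *POLR1A* in the catalytic core, measured 24.6, 20.4 and 25.2 CPM in ASO_CTRL and 21.6, 22.7 and 17.6 CPM in ASO_LINC#3. The conditions overlapped, and its log2 fold change was -0.18 (SE 0.17, adjusted p = 0.497 in edgeR's quasi-likelihood test with Benjamini-Hochberg adjustment). The ratio of *POLR1A* to *POLR1B* reads inside a library, which does not depend on scaling, had a log2 value of 0.18 ± 0.16 in ASO_CTRL and -0.63 ± 0.58 in ASO_LINC#3 (SD, n = 3). The difference of -0.81 gave an exact two-sided permutation p of 0.2 (0.45 adjusted over 3 ratios), where 0.1 is the smallest p that 3 libraries against 3 allow. This ratio was chosen after the values had been seen.

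*POLR1E*, the human counterpart of the yeast initiation subunit A49, measured 42.7, 35.7 and 38.4 CPM in ASO_CTRL and 26.7, 30.6 and 28.4 CPM in ASO_LINC#3. Its knockdown libraries all lay below its controls, but with a log2 fold change of -0.45 and an adjusted p of 0.0523 in edgeR's quasi-likelihood test it was not called. *POLR1C* and *POLR1D*, which form a pair that polymerases I and III share, had log2 fold changes of -0.23 and -0.19 with adjusted p of 0.363 and 0.315 in the same edgeR test. The libraries of *POLR1D* did not overlap, from 164 to 179 CPM in ASO_CTRL and from 142 to 162 CPM in ASO_LINC#3. *POLR1C* overlapped, since ASO_LINC#3 replicate 3 at 53.8 CPM exceeded each control. The gene of *POLR1C* lies opposite to *XPO5*, *YIPF3* and *LRRC73* in the annotation, and without the strand setting of the counting its reads may include theirs.

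The rule by name leaves out other proteins of the polymerase I machinery, of which 10 were listed and tested. *ZNRD1*, a small polymerase I subunit, was the only one called and was lower (10% of the list, beside 7.54% of all tested genes). It measured 59.1, 55.6 and 57.3 CPM in ASO_CTRL and 33.3, 30.7 and 41.9 CPM in ASO_LINC#3, a log2 fold change of -0.71 (SE 0.15, adjusted p = 0.00918 in edgeR's quasi-likelihood test with Benjamini-Hochberg adjustment). The list holds 2 other subunits, named here after their values were seen. *TWISTNB*, the human counterpart of the yeast stalk subunit A43, measured 35.7, 39 and 36.5 CPM in ASO_CTRL and 56.0, 47.1 and 40 CPM in ASO_LINC#3, above the controls in every knockdown library, with a log2 fold change of 0.37 that was not called (adjusted p = 0.117 in the same edgeR test). *CD3EAP*, the counterpart of A34.5, had -0.06 (adjusted p = 0.848) and its libraries overlapped. Over the list, 7 of 10 genes were above 0 and the median was 0.29. *RRN3*, which brings polymerase I to its promoters, had a log2 fold change of 0.52 (adjusted p = 0.0593 in the same edgeR test), and *UBTF*, the factor that marks active ribosomal DNA, had 0.28 (adjusted p = 0.205).

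Among the genes named POLR2, 2 of 16 tested were called (12.5%, beside 7.54% of all tested genes). Both were lower, and 6 of the 16 had a log2 fold change above 0. *POLR2L*, a small zinc-binding subunit that all 3 enzymes share, measured 446, 395 and 430 CPM in ASO_CTRL and 245, 255 and 255 CPM in ASO_LINC#3. The spread among the knockdown libraries was small beside the gap between the conditions. *POLR2L*, on chromosome 11 of GRCh37 from 837356 to 842529, fell from 424 ± 25.9 to 252 ± 5.59 CPM (SD, n = 3), a log2 fold change of -0.75 (SE 0.12, adjusted p = 0.00174 in edgeR's quasi-likelihood test with Benjamini-Hochberg adjustment). Its gene overlaps *CD151* on the opposite strand by 2476 bases, and because the strand setting of the counting is not given in the sources used here, reads of the pair may be mixed.

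*POLR2G*, the subunit RPB7 of the stalk beside the RNA exit channel, measured 75.5, 85 and 76 CPM in ASO_CTRL and 46.8, 41.5 and 50.6 CPM in ASO_LINC#3. The conditions lay well apart. *POLR2G*, on chromosome 11 of GRCh37 from 62529037 to 62534182, fell from 78.8 ± 5.32 to 46.3 ± 4.56 CPM (SD, n = 3), a log2 fold change of -0.77 (SE 0.14, adjusted p = 0.00383 in edgeR's quasi-likelihood test with Benjamini-Hochberg adjustment). Its stalk partner *POLR2D* measured 12.1, 12.0 and 13.6 CPM in ASO_CTRL and 12.3, 12.3 and 7.30 CPM in ASO_LINC#3, so that only replicate 3 lay apart. The log2 ratio of *POLR2G* to *POLR2D* reads was 2.64 ± 0.17 in ASO_CTRL and 2.15 ± 0.55 in ASO_LINC#3, a difference of -0.50 with an exact two-sided permutation p of 0.3 (0.45 adjusted over 3 ratios), also chosen after the values had been seen.

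The catalytic pair of polymerase II was not called. *POLR2A*, the largest subunit with the heptad repeat tail, measured 46.8, 56.1 and 49.1 CPM in ASO_CTRL and 32.7, 31.2 and 67.1 CPM in ASO_LINC#3. Replicates 1 and 2 lay below every control and replicate 3 above every control, and the fitted log2 fold change was -0.24 (SE 0.26, adjusted p = 0.568 in edgeR's quasi-likelihood test with Benjamini-Hochberg adjustment). Without that library the log2 fold change of *POLR2A* was -0.66 (adjusted p = 0.00244 in the same test) and passed the bounds. *POLR2B*, the second largest subunit, measured 44.2, 38.6 and 29.7 CPM in ASO_CTRL and 39.0, 47.3 and 24.9 CPM in ASO_LINC#3, with a log2 fold change of 0.002, the nearest to 0 of all polymerase II subunits.

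The 5 subunits common to all 3 enzymes did not move as a unit. Besides *POLR2L*, *POLR2E* showed the same split as *POLR2A*, with 153, 209 and 172 CPM in ASO_CTRL and 95.5, 89.3 and 197 CPM in ASO_LINC#3, and a log2 fold change of -0.49 that was not called (adjusted p = 0.235 in edgeR's quasi-likelihood test). *POLR2F* had a log2 fold change of -0.29, and its knockdown libraries (55.7, 57.0 and 69.5 CPM) lay just under the lowest control of 69.7 CPM. *POLR2K* had -0.34 at 5.72 to 10.2 CPM and *POLR2H* had 0.10, and the libraries of each overlapped. Outside the shared subunits, *POLR2C*, the platform subunit RPB3, lay above its controls, with 77.0, 76.4 and 81.7 CPM in ASO_CTRL against 93.3, 101 and 111 CPM in ASO_LINC#3, without overlap. Its log2 fold change of 0.38 was not called (adjusted p = 0.0641 in the same edgeR test).

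The remaining names of the polymerase II series carried less information. *POLR2J*, *POLR2J2*, *POLR2J3* and *POLR2J4* are related copies among which reads may be split, and their log2 fold changes of 0.11, 0.18, -0.10 and -0.09 are uncertain for that reason. *POLR2J4* is annotated as a long noncoding RNA, though it is counted with the polymerase II subunits by its name. *POLR2M*, which matches by name, is the *GRINL1A* gene, whose product Gdown1 associates with polymerase II, and its log2 fold change was 0.32 (adjusted p = 0.189 in edgeR's quasi-likelihood test with Benjamini-Hochberg adjustment). *POLR2CP* is annotated as a processed pseudogene and had 4 to 9 reads per library, and it was the only member that did not pass the filter. The 28 other listed genes of polymerase II initiation and elongation held 0 calls by edgeR, DESeq2 and limma-voom alike, and in edgeR 1 had an unadjusted p below 0.05 with a higher level and 4 with a lower level (3.57% and 14.3%, beside 17.1% and 15.3% of all tested genes).

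The 10 subunits named POLR3 had a median of 0.07, on the other side of 0 from those named POLR1, though 4 of the 10 were below 0. Polymerase III also holds shared subunits named POLR1 and POLR2. Their medians were -0.34 (shared by all 3 enzymes) and -0.21 (shared by I and III). The contrast by name is thus not a contrast of whole enzymes, and the difference was not tested. *POLR3D*, the subunit RPC4, which acts in termination and reinitiation, was the only POLR3 subunit called (10%, beside 7.54% of all tested genes). It measured 41.5, 35.2 and 37.8 CPM in ASO_CTRL and 56.5, 57.7 and 65.7 CPM in ASO_LINC#3, with no overlap. The gene, which spans 22102646 to 22112114 of chromosome 8 in GRCh37, rose from 38.2 ± 3.18 to 60.0 ± 5.02 CPM (SD, n = 3), a log2 fold change of 0.65 (SE 0.14, adjusted p = 0.00943 in edgeR's quasi-likelihood test with Benjamini-Hochberg adjustment). This call sat at the bound, and with no filter on low counts its adjusted p in the same edgeR test was 0.0101.

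The catalytic subunits of polymerase III did not follow *POLR3D*. *POLR3A*, the largest subunit, measured 17.5, 18.0 and 14.6 CPM in ASO_CTRL and 16.6, 16.4 and 21.9 CPM in ASO_LINC#3, a log2 fold change of 0.12 (adjusted p = 0.681 in edgeR's quasi-likelihood test). *POLR3B*, its partner, measured 7.12, 7.90 and 8.09 CPM in ASO_CTRL and 9.82, 8.54 and 3.79 CPM in ASO_LINC#3. Replicates 1 and 2 of *POLR3B* lay above the controls and replicate 3, with 14 reads, lay below them, which left a log2 fold change of -0.01. *POLR3F*, which helps the enzyme find its initiation factors, lay above its controls in every knockdown library (10.5 to 10.9 against 12.9 to 13.8 CPM) but was not called, with a log2 fold change of 0.32 (adjusted p = 0.217 in the same edgeR test). *POLR3K*, the subunit with a role in RNA cleavage, had -0.31 (adjusted p = 0.177).

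*POLR3G* and *POLR3GL* are alternative forms of the same polymerase III subunit, and the former is known to be more abundant in stem cells and tumors. *POLR3G* measured 4.70, 5.15 and 3.24 CPM in ASO_CTRL and 5.13, 5.97 and 4.06 CPM in ASO_LINC#3, and *POLR3GL* ranged from 22.4 to 32.8 and from 24.9 to 34.1 CPM. The gene of *POLR3G* overlaps *MBLAC2* on the opposite strand by 3024 bases, so the *POLR3G* reads may include some of *MBLAC2*. The log2 ratio of *POLR3G* to *POLR3GL* reads was -2.64 ± 0.39 in ASO_CTRL and -2.51 ± 0.45 in ASO_LINC#3 (SD, n = 3). The difference of 0.13 was smaller than the spread between replicates, with an exact two-sided permutation p of 0.8 (0.8 adjusted over 3 ratios).

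Of 18 other listed genes of polymerase III transcription, 1 was called higher and 2 lower (16.7% together, beside 7.54% of all tested genes). *SNAPC1*, a subunit of the complex that recognizes small nuclear RNA promoters, rose from 28.9 ± 0.92 to 46.2 ± 5.85 CPM (SD, n = 3), a log2 fold change of 0.69 (adjusted p = 0.00914 in edgeR's quasi-likelihood test with Benjamini-Hochberg adjustment). *SNAPC5*, another subunit of that complex, measured 35.5, 35.4 and 36.5 CPM in ASO_CTRL and 23.2, 20.0 and 21.1 CPM in ASO_LINC#3, a log2 fold change of -0.74 (adjusted p = 0.00586 in the same edgeR test). *SSB*, the La protein that binds the ends of new polymerase III transcripts, fell from 143 ± 4.21 to 89.7 ± 6.13 CPM (SD, n = 3), a log2 fold change of -0.68 (adjusted p = 0.0043). Subunits of 1 complex thus passed the test in opposite directions.

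**Figure D2:**
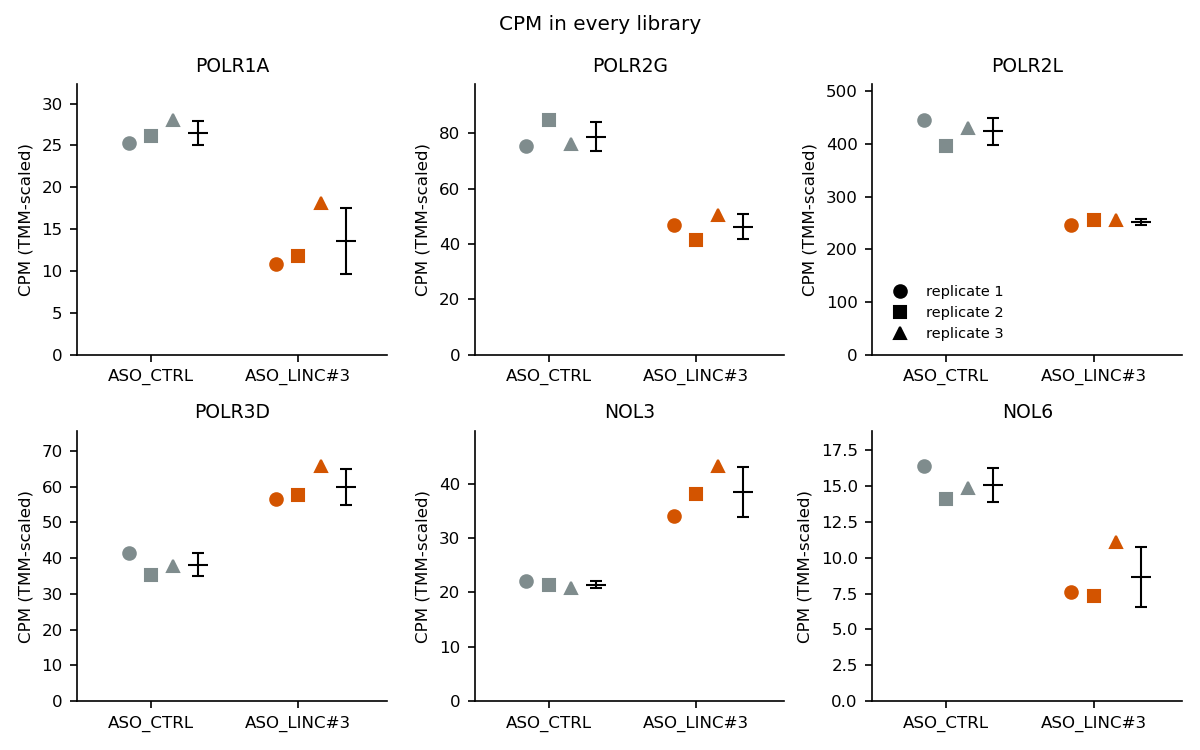
TMM-scaled CPM (y axis, from 0) in each of the 3 ASO_CTRL and 3 ASO_LINC#3 libraries for the 5 called members and NOL6, with the mean and SD in black beside the points. In each panel the conditions do not overlap, and in POLR1A and NOL6 the triangle of ASO_LINC#3 replicate 3 lies nearest to the controls, at 18.1 and 11.1 CPM.

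Among the 39 ribosome biogenesis factors, the only call (2.56%, beside 7.54% of all tested genes) was *NOL3*, which is not a ribosome factor. It matches the rule by name and encodes ARC, known as a repressor of apoptosis with a caspase recruitment domain. *NOL3* measured 22.0, 21.5 and 20.8 CPM in ASO_CTRL and 34, 38.1 and 43.3 CPM in ASO_LINC#3, with no overlap. Its gene spans 67204057 to 67209640 of chromosome 16 in GRCh37, and its level rose from 21.4 ± 0.60 to 38.4 ± 4.63 CPM (SD, n = 3), a log2 fold change of 0.84 (SE 0.15, adjusted p = 0.00404 in edgeR's quasi-likelihood test with Benjamini-Hochberg adjustment). No factor with a known role in ribosome assembly was called by edgeR, DESeq2 or limma-voom, and at an unadjusted p below 0.05 in edgeR the 39 names, *NOL3* included, held 3 higher (7.69%) and 6 lower (15.4%). Over all tested genes 17.1% were higher and 15.3% lower at that level. The 39 names also include *RRP7B*, which was treated as a pseudogene. Without *RRP7B* and *POLR2CP* the median log2 fold change over the 69 tested members left was -0.08.

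The small subunit processome, which assembles on the precursor and makes its early cuts, held the members nearest to a call. *NOL6*, a processome protein, measured 16.4, 14.1 and 14.8 CPM in ASO_CTRL and 7.62, 7.34 and 11.1 CPM in ASO_LINC#3. The libraries did not overlap, and its log2 fold change of -0.83 (SE 0.21) had an adjusted p of 0.0193 in edgeR's quasi-likelihood test with Benjamini-Hochberg adjustment. *NOL6* lies on chromosome 9 of GRCh37 from 33461351 to 33473928. *UTP20*, a very large scaffold protein of the processome, measured 17.9, 15.1 and 16.1 CPM in ASO_CTRL and 10.3, 12.3 and 10.5 CPM in ASO_LINC#3, a log2 fold change of -0.57 (adjusted p = 0.0468 in the same edgeR test).

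Over the 16 processome members the median was -0.06, with 7 above 0 and 9 below, and 0 were called by edgeR, DESeq2 or limma-voom. At an unadjusted p below 0.05 in edgeR, 1 was higher and 2 were lower (6.25% and 12.5%, beside 17.1% and 15.3% of all tested genes). *UTP6* had the highest log2 fold change of the class, 0.52, from 33.7, 33.0 and 46.7 CPM in ASO_CTRL and 59.1, 65.4 and 37.9 CPM in ASO_LINC#3, where replicate 3 lay among the controls. *RRP12*, known for its part in the export of pre-ribosomes, was the nearest to no change, at 20.0 ± 0.73 and 20.0 ± 2.87 CPM (SD, n = 3).

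The proteins that modify ribosomal RNA were not called. *FBL*, fibrillarin, the methyltransferase of box C/D particles, measured 175, 184 and 184 CPM in ASO_CTRL and 143, 132 and 156 CPM in ASO_LINC#3. All knockdown libraries lay below the controls, with a log2 fold change of -0.33 (SE 0.12, adjusted p = 0.083 in edgeR's quasi-likelihood test with Benjamini-Hochberg adjustment). Its partners in the same particle lay on the other side of 0: *NOP58* had a log2 fold change of 0.43 (adjusted p = 0.115 in the same edgeR test) and *NOP56* had 0.17 (adjusted p = 0.369). All knockdown libraries of *NOP56* lay above its controls, whereas the libraries of *NOP58* overlapped. In box H/ACA particles, which direct pseudouridylation, *DKC1* (dyskerin, the pseudouridine synthase) had -0.01 and *NOP10* had -0.07, and the libraries of each overlapped.

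Large subunit factors held 0 calls by the 3 tools among 10 members, with 1 lower member (10%, beside 15.3% of all tested genes) and 0 higher (beside 17.1%) at an unadjusted p below 0.05 in edgeR. The PeBoW complex, which is needed for the large subunit's maturation, is made of *PES1*, *BOP1* and *WDR12*. *PES1* had 25.1 ± 0.27 CPM in ASO_CTRL and 24.1 ± 4.78 CPM in ASO_LINC#3 (SD, n = 3). *WDR12* had a log2 fold change of -0.22 (adjusted p = 0.494 in edgeR's quasi-likelihood test). *BOP1* measured 11.6, 16 and 11.7 CPM in ASO_CTRL and 9.38, 9.22 and 20.3 CPM in ASO_LINC#3, so that replicates 1 and 2 lay below the controls and replicate 3 above them. *RRP1* showed the widest such split of all members, with 20.7, 18.4 and 18.1 CPM in ASO_CTRL and 13.8, 13.1 and 38.9 CPM in ASO_LINC#3. *NOL9*, a polynucleotide kinase, and *RRP1B*, a nucleolar relative of *RRP1*, had the smallest p-values of the class, with log2 fold changes of -0.41 and -0.31 (adjusted p of 0.128 and 0.215 in the same edgeR test).

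*NPM1* and *NCL* lay below their controls without a call. *NPM1*, nucleophosmin, a chaperone of the nucleolus, measured 1254, 1189.9 and 1275 CPM in ASO_CTRL and 1096, 1040.4 and 891 CPM in ASO_LINC#3, a log2 fold change of -0.30 (SE 0.12, adjusted p = 0.112 in edgeR's quasi-likelihood test with Benjamini-Hochberg adjustment). *NCL*, nucleolin, an RNA-binding protein of the early precursor, measured 477, 451 and 423 CPM against 378, 380 and 412 CPM, a log2 fold change of -0.21 (adjusted p = 0.248 in the same edgeR test). In both genes no knockdown library reached the lowest control. *NOL7*, another abundant member of the class, had 195 ± 34.1 CPM in ASO_CTRL and 246 ± 33.7 CPM in ASO_LINC#3 (SD, n = 3), a log2 fold change of 0.33 with overlapping libraries (adjusted p = 0.177 in the same edgeR test), and it is named after its values were seen. *RRP8* was the nearest of the other nucleolar proteins to an adjusted p of 1, at 0.473 with a log2 fold change of 0.20.

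Of 91 other listed biogenesis genes, 0 were called higher and 1 lower by edgeR (1.1%, beside 7.54% of all tested genes). DESeq2 called 3 higher and 1 lower, beside 9.61% of all genes it tested. *EXOSC7*, a subunit of the RNA exosome that trims the precursor, measured 27.1, 35.5 and 29.0 CPM in ASO_CTRL and 12.8, 15.7 and 17.8 CPM in ASO_LINC#3, a log2 fold change of -0.996 (SE 0.18, adjusted p = 0.0047 in edgeR's quasi-likelihood test with Benjamini-Hochberg adjustment). *MYC* measured 189, 169 and 205 CPM in ASO_CTRL and 306, 283 and 248 CPM in ASO_LINC#3, without overlap. Its log2 fold change of 0.57 (SE 0.13) had an adjusted p of 0.0144 in the same edgeR test and was not called, while DESeq2 called it with an adjusted p of 0.00309. The median log2 fold change of the 91 genes was -0.01. Over all 147 other listed genes of the 3 enzymes and of biogenesis, 5 were called (3.4%, beside 7.54% of all tested genes).

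**Figure D3:**
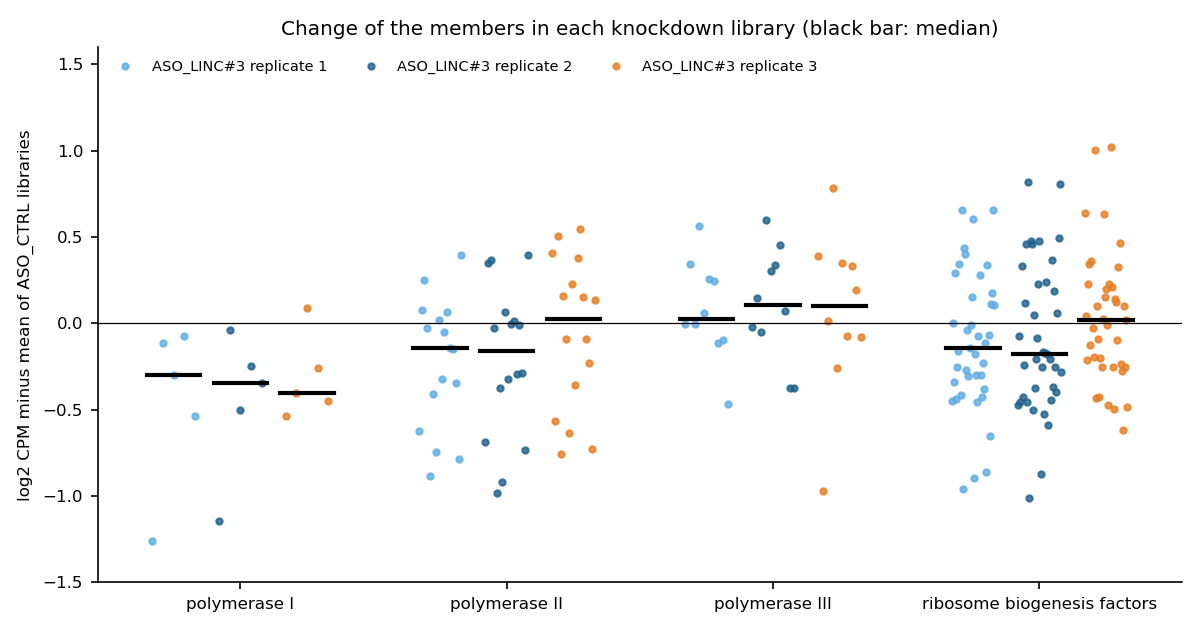
Log2 CPM of each tested member in ASO_LINC#3 replicates 1, 2 and 3 minus its mean in the ASO_CTRL libraries (y axis), for the 4 groups (x axis), with the median of each as a black bar. For polymerase I the medians are -0.30, -0.34 and -0.40 in replicates 1, 2 and 3, whereas for polymerase II replicate 3 has a median of 0.02 against -0.15 and -0.16.

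The knockdown libraries did not give the same account of these genes. In 27 of 70 members (38.6%, beside 27.1% of all tested genes) the change in ASO_LINC#3 replicate 3 had the opposite sign to replicates 1 and 2, which had the same sign. The median change of biogenesis factors was -0.14, -0.18 and 0.02 in replicates 1, 2 and 3, and that of polymerase III was 0.03, 0.11 and 0.10. The gap of replicate 3 from the mean of the others rose with the GC content of the transcript, with a Pearson r of 0.623 over 68 members and 0.556 over 12703 genes. These correlations run across genes of the same 6 libraries, and genes are not independent replicates, so they are given as a description. The slope was 0.396 on the log2 scale for 10 points of GC over the members. GC-rich members such as *RRP1* (58.5% GC), *POLR2A* (56.1%), *POLR2E* (59.5%) and *BOP1* (65.6%) lay higher in replicate 3, and *POLR2B* (41.9%), *UTP6* (42.8%) and *POLR3B* (43.6%) lay lower.

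**Figure D4:**
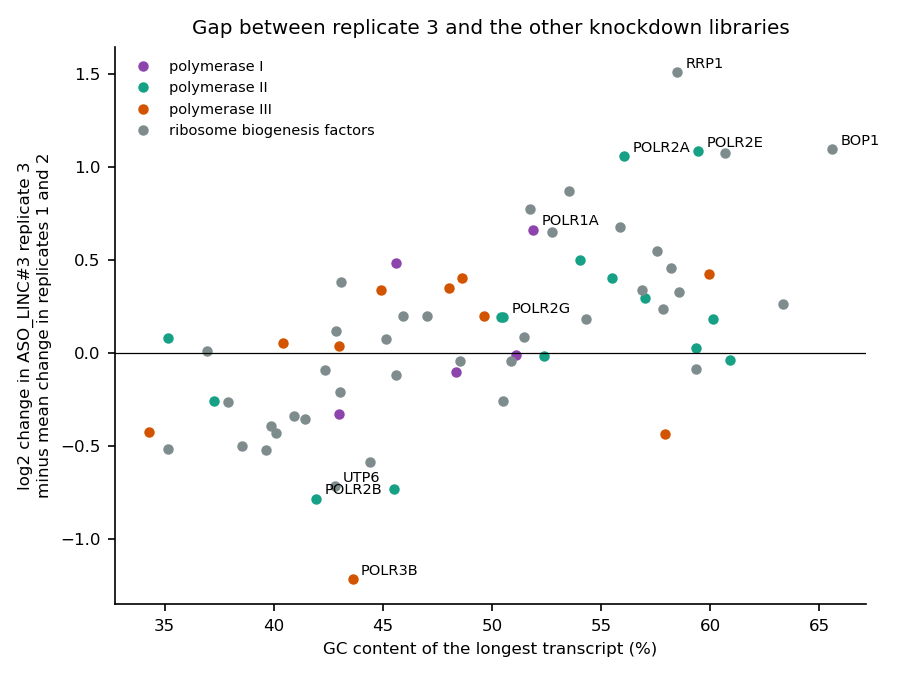
Change in ASO_LINC#3 replicate 3 minus the mean change in replicates 1 and 2, on the log2 scale (y axis), against the GC content of the longest transcript in percent (x axis) for the 68 tested members with an annotated transcript, colored by group. The points run from lower left to upper right (Pearson r = 0.623), with RRP1 at the top and POLR3B at the bottom.

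Further fits bear on this library. Without ASO_LINC#3 replicate 3, edgeR's quasi-likelihood test called 11 members, 3 higher and 8 lower, beside 17.2% of all genes: the 5 named above, and *NOL6*, *NOP9*, *POLR2A*, *POLR2E*, *RRP36* and *UTP6*. When trends on GC content and transcript length were removed from every library, 6 members were called, the same 5 and *NOL6*, beside 13.4% of the 12703 genes that could be corrected. *NOL6* then had a log2 fold change of -0.86 (adjusted p = 0.00311 in the same edgeR test). The correction removes the trend with GC content by construction, so the Pearson r of the gap with GC content was 0 over all genes and 0.077 over the members. That value is no test of the correction. *POLR2E* then had the same sign in all 3 knockdown libraries, -0.79, -0.83 and -0.14. The changes of *POLR2A* in the 3 knockdown libraries were -0.58, -0.60 and 0.19, and those of *RRP1* were -0.37, -0.38 and 0.74, with the opposite sign in replicate 3 as before. In *POLR1A* they were -1.27, -1.10 and -0.63.

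The calls depended on which libraries were in the fit. Leaving out ASO_CTRL replicate 1, ASO_CTRL replicate 3 or ASO_LINC#3 replicate 1 left 0 members called by edgeR's quasi-likelihood test, with 10, 11 and 11 members at an unadjusted p below 0.05, and leaving out ASO_CTRL replicate 2 or ASO_LINC#3 replicate 2 left *POLR2L* alone. In these 5 fits from 2.42 to 3.5% of all tested genes were called. Their share of all genes at the unadjusted level is not given here. In the reported fit 7.14% of members were higher and 15.7% lower at that level, beside 17.1% and 15.3% of all tested genes. DESeq2 and limma-voom called the same number of members as the reported fit, 5, beside 9.61% and 8.27% of all genes each tested. The 5 called members kept their direction in each of the 18 alternatives. These alternatives reuse the libraries in which the members were picked, so this is no independent check.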

How the data were processed

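RNA of H226 cells (3 ASO_CTRL and 3 ASO_LINC#3 libraries, 48 h after transfection) was sequenced by the authors as single reads and aligned to hg19 with STAR, and they deposited whole-number read counts per gene name, without normalization or pooling. Counter, annotation and strand setting are not given in the sources used here. Further members overlap genes on the opposite strand, such as *WDR12* with *CARF* and *NOL7* with *RANBP9*, and their reads may be mixed. The methods paragraph names BJ cells, whereas the labels name H226. The 4 totals of unassigned reads were left out. The comparison used edgeR 4.0.16 under R 4.3.3 (filterByExpr, TMM, quasi-likelihood F-test, no block), with Benjamini-Hochberg adjustment over 14660 genes. Groups and replicates came from the labels. The depth of 3686828 to 10546786 gene reads sets the precision, and counting error is part of the fit. Values per library on the log2 scale had a prior count of 2, and read ratios had 0.5 added to each count. The fits were tested on simulated data.

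Members were grouped by name, and the lists, the rule for named genes and the tests were chosen with earlier results of these data known. Named are called members, in each class the 2 smallest p-values and the p nearest 1, the largest subunits, shared, duplicated and non-core names, *MYC*, and the called genes of the other lists. Alternatives were DESeq2 1.42.0, limma-voom (limma 3.58.1), other scalings and filters, robust dispersion, an adjusted p of 0.05, glmTreat, the replicate block and leaving out each library. The correction for GC content and length (splines of 5 degrees of freedom) and 2 of the 3 ratios were added after seeing the data. Positions and GC content are those of GENCODE lifted to GRCh37, in which 13273 names matched by symbol and 966 by an older symbol. Promoter sequences are from RefSeq (GRCh38.p14).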

Additional observations from a re-analysis of the deposited data

How the results depend on the processing

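DESeq2, limma-voom, DESeq2's size factors, library size only and robust dispersion each called 5 members, beside 7.58 to 9.61% of all tested genes. With no filter, or with at least 10 counts in every library, *POLR3D* alone lost its call (adjusted p of 0.0101 and 0.0102 in edgeR), which left polymerase III with 0. An adjusted p of 0.05 gave 3 biogenesis factors and 16 other pathway genes, beside 16.8% of all tested genes. glmTreat, which tests against the fold bound itself, called 0 members in every group and 0 pathway genes, beside 2.62% of all tested genes called. At an unadjusted p below 0.05 it held 5 members, and the share of all genes at that level is not given here. DESeq2 called 8 pathway genes, beside 9.61% of all genes it tested, against 5 in the reported fit. The GC and length correction gave 2 biogenesis factors and 12 pathway genes, beside 13.4% of all corrected genes. The GC and length correction with the replicate block gave 2 biogenesis factors and 0 polymerase III subunits, beside 9.69%. The polymerase III median was then 0.02205.

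Leaving out each library gave 0 to 11 members called, beside 2.42 to 17.2% of all tested genes. These were 0 to 1 for polymerase I, 0 to 4 for polymerase II, 0 to 1 for polymerase III and 0 to 5 for biogenesis. For pathway genes the range was 0 to 28. ASO_LINC#3 replicate 3 set each upper end, tied for polymerase I and III with the reported count. Medians then ranged from -0.40 to -0.21 for polymerase I and from 0.03569 to 0.1222 for polymerase III. The polymerase II median ranged from -0.17 to -0.07, the latter without ASO_LINC#3 replicate 1. The biogenesis median ranged from -0.16 to 0.002, and it was 0.002 without ASO_LINC#3 replicate 1, -0.02 without ASO_LINC#3 replicate 2 and -0.16 without ASO_LINC#3 replicate 3. The log2 ratio of *POLR3G* to *POLR3GL* ranged from -0.06307 to 0.39, turning to -0.06307 without ASO_CTRL replicate 3 and to -0.008984 without ASO_LINC#3 replicate 2. The cause was not tested.

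The deviations of samples of equal replicate number had correlations of 0.059, -0.149 and -0.18. With 3 libraries per condition these values cannot tell whether such samples share a batch or culture. Taking the number as a replicate block left 0 members called in every group and 1 pathway gene, *EXOSC7*, beside 4.47% of all tested genes called. With the block 12 members had an unadjusted p below 0.05, and the share of all genes at that level is not given here. No ASO_LINC#3 library correlated best with the ASO_CTRL library of its own number. Among the ASO_CTRL libraries only replicate 1 correlated best with its own number. Libraries of 1 condition differed beyond sampling noise, with a chi-square per degree of freedom from 2.42 to 12.9.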
